A study of Homo sapiens with 6 samples.

Results

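The loci of 9 growth factor and tyrosine kinase genes were examined for the binding of 2 transcription factors in human airway epithelial cells. The genes were the ligands EREG, AREG, HBEGF and TGFA, the receptors EGFR, ERBB2, ERBB3 and MET, and the cytoplasmic kinase PTK6. A peak belonged to a locus when its midpoint lay within 50 kb of the gene's hg19 span. EREG and AREG are neighbours and shared 1 span, which left 8 windows of 110 to 290 kb, 1407 kb in all. The rule takes peaks by position alone, but the loci were chosen with earlier results of these data known. The windows held 90 of the 74158 deposited peaks. Of these, 4 came from the 1510 KLF5 peaks of Calu-3, 21 from the 3262 KLF5 peaks of 16HBE14o- and 65 from the 69386 CEBPB peaks of Calu-3.

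Binding had been measured by chromatin immunoprecipitation and sequencing (ChIP-seq) in 6 samples, 2 for each factor and line. Calu-3 is a lung adenocarcinoma line and 16HBE14o- an immortalised bronchial epithelial line, and both were grown untreated in DMEM with 10% FBS. The first Calu-3 sample for KLF5 had used a rabbit antibody to KLF5, and the second the commercial antibody sc-398470 that served for both 16HBE14o- samples. CEBPB was precipitated with sc-7962, in Calu-3 only. The authors made each peak list from both samples of its group, so that no value below has a spread between samples, no test between groups could be made, and a difference between the KLF5 lists cannot be fully told apart from the difference in antibody. Whether the samples came from separate cultures was not stated.

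EGF family ligands are made as membrane-anchored precursors, are released by metalloproteases and bind receptors of the ERBB family, which pair and phosphorylate each other. In airway epithelium this pathway is known for driving the spreading and migration of cells that close a wound. MET is the receptor of hepatocyte growth factor, and PTK6 is an epithelial kinase related to the Src family that acts downstream of ERBB receptors. KLF5 is a zinc finger factor that binds GC-rich and CACCC elements, and CEBPB is a basic leucine zipper factor.

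KLF5 peaks were unevenly spread over these loci, as the map of the 8 windows shows. PTK6 held 16 of the 25 KLF5 peaks, 14 of them from 16HBE14o-. MET was the only other window with a peak of both KLF5 lists, at opposite ends of the gene. TGFA had a peak in Calu-3 alone, whereas EGFR, ERBB2 and ERBB3 had peaks in 16HBE14o- alone. No KLF5 peak of either line was listed at EREG and AREG or at HBEGF. CEBPB peaks were listed in all 8 windows, with 3 to 11 in each. A locus without a listed peak is not shown to be unbound, because the sequencing depth is unknown.

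**Figure D1:**
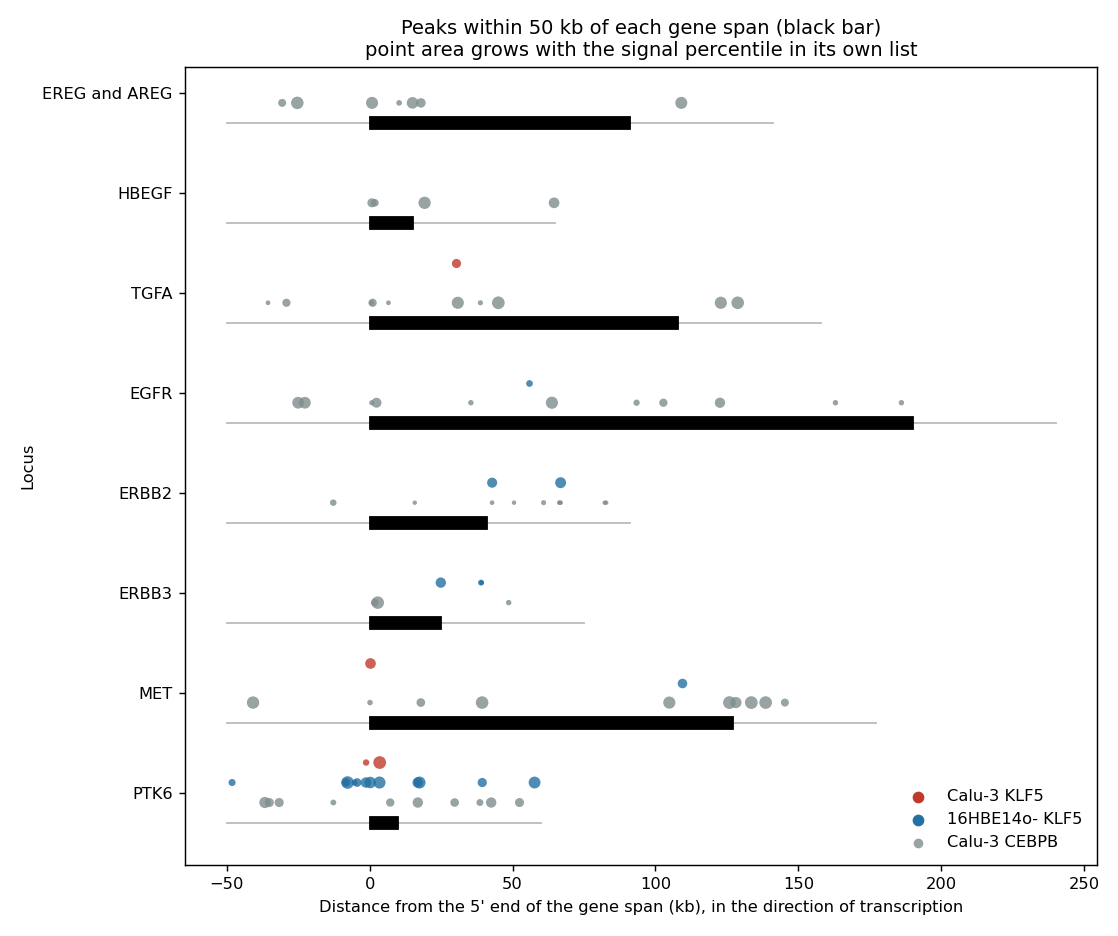
Peaks of the 3 lists in each window, placed by their distance in kb from the 5′ end of the gene span in the direction of transcription; black bars mark the spans, grey lines the windows of 50 kb on either side, and point area grows with the signal percentile of the peak in its own list. KLF5 peaks gather at PTK6, and the ligand loci hold 1 KLF5 peak in all.

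Peaks lay within 1 kb of the 5′ end of the span at 6 genes. At MET these were a KLF5 and a CEBPB peak of Calu-3, at PTK6 a KLF5 peak of 16HBE14o-, and at EGFR, EREG, HBEGF and TGFA CEBPB peaks alone. The promoters of the 5 of these genes with an entry in RefSeq's promoter table, which lacks PTK6, are shown because a peak was listed within 1 kb of their start. Of the CEBPB peaks there, those at EREG and HBEGF had a q-value of 0.05 or less, and those at MET, EGFR and TGFA did not. Each line gives the 250 bases before the start site on GRCh38.p14, 5′ to 3′ in the direction of the gene. For EGFR and TGFA, which have 2 entries each, the start site farther upstream was used. Capitals mark matches to GGGNGNGG, a GC-box pattern that Krüppel-like factors can bind, on either strand. The windows are MET chr7:116671946-116672195, EGFR chr7:55018767-55019016 and EREG chr4:74364895-74365144 on the plus strand, and TGFA chr2:70553827-70554076 and HBEGF chr5:140346604-140346853 on the minus strand.
MET: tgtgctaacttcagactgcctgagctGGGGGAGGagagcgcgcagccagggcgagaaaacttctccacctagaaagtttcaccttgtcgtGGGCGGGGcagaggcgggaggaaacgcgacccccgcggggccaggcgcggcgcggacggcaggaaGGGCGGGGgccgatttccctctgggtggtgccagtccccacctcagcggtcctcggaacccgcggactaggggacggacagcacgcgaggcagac
EGFR: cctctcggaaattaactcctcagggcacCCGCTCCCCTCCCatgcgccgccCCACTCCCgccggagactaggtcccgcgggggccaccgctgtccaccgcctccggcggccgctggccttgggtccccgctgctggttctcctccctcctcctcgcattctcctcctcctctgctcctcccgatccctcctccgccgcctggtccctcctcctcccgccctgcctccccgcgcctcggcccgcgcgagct
TGFA: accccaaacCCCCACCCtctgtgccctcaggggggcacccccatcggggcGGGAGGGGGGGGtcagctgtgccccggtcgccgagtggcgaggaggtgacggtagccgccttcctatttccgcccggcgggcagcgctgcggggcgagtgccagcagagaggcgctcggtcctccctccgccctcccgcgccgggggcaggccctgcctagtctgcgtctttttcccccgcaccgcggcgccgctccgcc
HBEGF: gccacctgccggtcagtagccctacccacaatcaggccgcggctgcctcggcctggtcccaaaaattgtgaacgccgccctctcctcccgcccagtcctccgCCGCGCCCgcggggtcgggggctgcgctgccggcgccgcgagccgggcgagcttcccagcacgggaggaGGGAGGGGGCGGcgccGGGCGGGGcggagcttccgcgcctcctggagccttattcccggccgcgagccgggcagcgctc
EREG: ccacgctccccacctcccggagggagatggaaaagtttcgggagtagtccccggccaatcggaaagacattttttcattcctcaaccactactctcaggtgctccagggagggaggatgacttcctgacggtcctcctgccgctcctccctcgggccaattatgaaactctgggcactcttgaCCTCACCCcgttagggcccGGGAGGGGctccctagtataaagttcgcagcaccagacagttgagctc

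All of these promoters but EREG were richer in G and C than the median of all promoters in RefSeq (58.0%), with up to 76.4% at HBEGF. EREG equalled that median at 58.0%. GGGNGNGG matched 3 times at MET, EGFR and TGFA, 4 times at HBEGF and 2 times at EREG, in the 300 bases that also include 50 after the start site. Some of the matches at EGFR, HBEGF and TGFA overlap each other and appear as 1 longer run of capitals. Of 35116 promoters, 56.2% held at least 1 such match, so the pattern is common. Neither TTGCNNAA, a CEBP pattern found in 10.5% of promoters, nor TGANTCA, the AP-1 pattern found in 7.71%, occurred in any of the 5. Both strands were searched. The peaks are on hg19 and the promoters on another assembly, so it was not determined which of these letters lie under a peak.

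Among the ligands, TGFA was the only gene with a KLF5 peak. TGFA encodes transforming growth factor alpha, a ligand of EGFR. The peak, from the Calu-3 list, lay on chromosome 2 at 70751482 to 70751761, inside the gene span and 30 kb from its 5′ end. Its signal of 26.0 put it at percentile 44.2 of that list, where 100 is the strongest peak. A CEBPB peak at 70751004 to 70751313 ended 168 bp before it and was at percentile 86.7 of the CEBPB list. The 16HBE14o- list had no peak within 50 kb of TGFA, although it had 14 in the 500 kb on either side of the window, a density of 1.40 per 100 kb against 0.104 over the chromosome.

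CEBPB had 10 peaks in the TGFA window, and their strength ranged widely. The strongest, at 70736839 to 70737105, had a signal of 8.90 (percentile 96.2) and lay inside the span, 45 kb from the 5′ end. Next came peaks beyond the 3′ end at 70653114 to 70653337 (signal 7.26, percentile 94.3) and 70658995 to 70659268 (signal 4.76, percentile 87.0). The pair of peaks within 1 kb of the 5′ end, by contrast, was at percentiles 4.83 and 33.5, with −log10 q-values of 0.384 and 0.832 that miss a q-value of 0.05. CEBPB was thus listed at the TGFA start, with peaks weaker than the 3 highest.

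EREG and AREG encode epiregulin and amphiregulin, and their window held 7 CEBPB peaks. The highest, on chromosome 4 at 75204598 to 75204789, had a signal of 6.75 (percentile 93.4) and lay 25 kb before EREG, on the side where RefSeq places EPGN, another gene of the EGF family. The second, at 75230706 to 75230974, lay within 1 kb of the EREG start with a signal of 4.51 (percentile 85.4). Of all CEBPB peaks within 1 kb of a 5′ end in these windows, it had the highest percentile. The third, at 75338965 to 75339118, lay beyond the AREG end of the span with a signal of 4.47 (percentile 85.1). The start of AREG itself was not placed, because the shared span does not give it. No KLF5 peak of 16HBE14o- was listed within 500 kb of the window, and 1 of Calu-3 was.

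HBEGF encodes heparin-binding EGF-like growth factor and had 4 CEBPB peaks, at 3.48 per 100 kb. That equalled the density over chromosome 5 (3.48) and was below that of the surrounding 1000 kb (6 per 100 kb). The strongest, at 139707677 to 139707873, had a signal of 5.41 (percentile 89.8) and lay beyond the 3′ end, 19 kb from the 5′ end. A peak at 139726092 to 139726340 lay within 1 kb of the 5′ end with a signal of 3.12 (percentile 42.5). The remaining peak among the 3 strongest, at 139662344 to 139662600, was at the edge of the window, 49.5 kb from the span, with a signal of 3.55 (percentile 65.0).

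Among the receptors, MET had the only KLF5 peak of Calu-3 at the start of a gene. It lay on chromosome 7 at 116311996 to 116312275, at the 5′ end of the span, with a signal of 30.6 and a percentile of 64.2. A CEBPB peak at 116312014 to 116312234 lay wholly within it, and the summits were 38 bp apart. This CEBPB peak was weak, with a signal of 2.48 (percentile 7.92) and a −log10 q-value of 0.384, which does not reach a q-value of 0.05. The 16HBE14o- KLF5 peak of MET was at 116421141 to 116421484, 109 kb from the 5′ end near the other end of the gene, with a signal of 29.9 (percentile 49.0). The peaks of both lines were 109 kb apart, and the nearest CEBPB peak to the 16HBE14o- site ended 4.17 kb before it.

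MET also had the CEBPB peak of highest signal in the 8 windows and the highest median. The median percentile of its 10 peaks was 89.4, against 47.7 over the whole CEBPB list, and the range was 7.92 to 97.8. The highest, at 116437704 to 116438065 (signal 11.1, percentile 97.8), lay inside the span close to the 3′ end. It was followed beyond the 3′ end by peaks at 116445379 to 116445672 (signal 9.36, percentile 96.7) and 116450459 to 116450632 (signal 8.18, percentile 95.5). None of the 3 was overlapped by a KLF5 peak. CAPZA2 is the next gene on that side in RefSeq.

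EGFR, the receptor of all 4 ligands, had 1 KLF5 peak within 50 kb and it was weak. It came from the 16HBE14o- list, lay at 55141571 to 55141914 on chromosome 7, 56 kb inside the gene, and had a signal of 23.5 (percentile 17.7) with a −log10 q-value of 1.20, which misses a q-value of 0.05. A Calu-3 KLF5 peak lay just outside the margin, at 55035063 to 55035342, 50.8 kb before the gene, with a signal of 31.9 (percentile 68.7). It coincided with a CEBPB peak at 55035080 to 55035328 of percentile 97.5, which was likewise outside. The 11 CEBPB peaks inside the EGFR window were lower. The highest, at 55149653 to 55149870, had a signal of 4.80 (percentile 87.3). The next, at 55060901 to 55061046 and 55063217 to 55063481, lay 25 and 23 kb before the gene and both had a signal of 4.06 (percentile 80.4). The CEBPB peak within 1 kb of the 5′ end was at percentile 5.14, with a −log10 q-value of 0.384 that misses a q-value of 0.05.

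ERBB3 is a receptor of neuregulins with little kinase activity of its own, and its window held 3 KLF5 peaks, all from 16HBE14o-. The strongest, on chromosome 12 at 56497722 to 56498065, lay at the 3′ end of the span with a signal of 32.2 (percentile 59.9). RefSeq places PA2G4 on that side, and which gene this peak belongs to was not determined. The others, at 56511796 to 56512139 and 56512000 to 56512343, overlapped each other and lay beyond the 3′ end, on the side of PA2G4, with signals of 18.9 (percentile 10.7) and 10.1 (percentile 2.12). Neither had a q-value of 0.05 or less. CEBPB had 3 peaks. The peak at 56475700 to 56475954, 3 kb into the gene, had a signal of 6.98 (percentile 93.8), and those at 56474723 to 56474847 and 56521583 to 56521707 had signals of 2.80 (percentile 26.3) and 2.47 (percentile 7.08). No KLF5 peak overlapped them, and the nearest pair was 9.24 kb apart.

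ERBB2 encodes a receptor with no known ligand of its own that pairs with the other ERBB receptors. Both KLF5 peaks of its window came from 16HBE14o- and lay beyond the 3′ end, where RefSeq places MIEN1 and GRB7. Which of these genes the peaks belong to was not determined. The first, on chromosome 17 at 37886686 to 37887029, had a signal of 31.5 (percentile 56.4) and lay 43 kb from the 5′ end. The second, at 37910643 to 37910986, had a signal of 34.7 (percentile 68.6) and lay 67 kb from the 5′ end. No other 16HBE14o- KLF5 peak was listed within 500 kb of the window. The nearest Calu-3 KLF5 peak to either of them was 577 kb away.

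Both of these 16HBE14o- sites had CEBPB peaks of Calu-3 over them. The first was overlapped by a CEBPB peak at 37886688 to 37886996, with summits 59 bp apart. The second was overlapped by peaks at 37910715 to 37910955, with summits 4 bp apart, and at 37910523 to 37910648, which shared 6 bp with it. Over all 8 windows, 4 of the 21 16HBE14o- KLF5 peaks overlapped a CEBPB peak (19.0%, exact 95% confidence interval 5.45 to 41.9, counting error only), beside 22.4% of the whole list. ERBB2 and PTK6 supplied 2 each.

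The CEBPB peaks of the ERBB2 window stood apart in how the authors' signal and q-value ranked them. By signal they were among the weakest of the list. The 10 signals ran from 1.58 to 2.65 with a median percentile of 0.267 and a highest of 15.7. By q-value the same peaks ranked in the upper part of the list, from percentile 69.1 to 97.7 with a median of 91.4. Their −log10 q-values ran from 1.88 to 28.0. The peak with the highest signal lay 13 kb before the gene at 37831139 to 37831395, with a signal of 2.65 (percentile 15.7) and a −log10 q-value of 28.0 (percentile 97.7). The peak at 37904764 to 37904952 had a signal of 2.33 (percentile 4.38) at a q-value percentile of 94.4, and the peak at 37886688 to 37886996 a signal of 2.17 (percentile 1.60) at a q-value percentile of 94.0.

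In all 10 ERBB2 peaks the q-value percentile exceeded the signal percentile by at least 60 points, which held for 0 of the 55 CEBPB peaks of the other 7 windows, as the plot of both percentiles shows. The threshold of 60 points was set after these values had been seen. In the whole CEBPB list 106 of 69386 peaks (0.153%) passed it. The excess had a median of 86.4 points at ERBB2, and over the whole list a median of -1.81 and quartiles of -6.29 and 2.73. In bins of 500 kb with at least 5 peaks, the bin from 37.5 to 38.0 Mb, which contains ERBB2, ranked 2nd of 4679 by its median excess (81.9 points over 18 peaks), behind a bin on chromosome 6 from 58.5 to 59.0 Mb with 5 peaks (89.1 points). The excess was smaller on either side, at 31.8 points from 37.0 to 37.5 Mb, where only 4 peaks lay and the bin was therefore not ranked, and 43.6 points from 38.0 to 38.5 Mb. Calu-3 is known as a line with extra copies of the ERBB2 region. Copy number was not measured in these lists, and its part in these ranks was not tested.

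**Figure D2:**
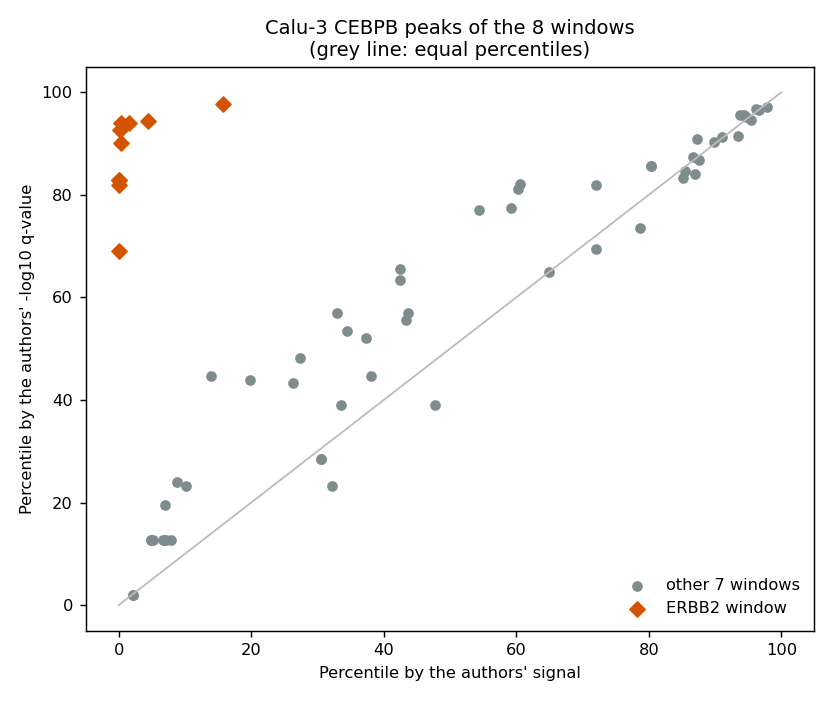
Percentile by the authors' signal (x axis) against percentile by the authors' −log10 q-value (y axis) for the 65 CEBPB peaks of the 8 windows; each point is a peak and the grey line marks equal percentiles. The 10 ERBB2 peaks lie between percentiles 69.1 and 97.7 by q-value but at or below percentile 15.7 by signal, apart from the 55 peaks of the other windows.

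PTK6 had the densest KLF5 binding of the 8 loci in both lines. The 16HBE14o- list had 14 peaks in 110 kb, or 12.7 per 100 kb, against 4.20 in the 500 kb on either side, 0.731 over chromosome 20 and 0.109 over the whole list. Of these 14 entries, 10 had a q-value of 0.05 or less. Merging entries that overlap each other left 12. The Calu-3 list had 2, or 1.82 per 100 kb, against 0.600, 0.158 and 0.0504. CEBPB was dense as well, with 10 peaks or 9.09 per 100 kb, against 5.90, 2.65 and 2.32. The window therefore stood above its surroundings in all 3 lists, on a chromosome that was itself denser in 16HBE14o- KLF5 peaks than the whole list. In windows of the same width centred on each of the 3262 16HBE14o- peaks, the median was 2 peaks, and 17 peaks (0.521%), all on chromosome 20, had 14 or more around them. Of those 17, 2 were PTK6 peaks, and no others lay within 1 Mb of PTK6. The rest lay farther along the chromosome, the first at 60891436. The highest count around any 16HBE14o- peak was 18. For Calu-3 KLF5, 552 of 1510 peaks (36.6%) had at least 2 peaks in such a window. In both lists these windows always hold the peak at their centre, whereas the PTK6 window was placed on a gene. They therefore do not show how usual the PTK6 counts are for windows placed on genes.

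Of the 14 16HBE14o- peaks at PTK6, 8 lay in 12.3 kb from 62165378 to 62177666, reaching from the body of the gene across its 5′ end. On that side RefSeq places SRMS, the neighbouring gene for a related kinase, and whether these peaks lie inside SRMS was not determined. The percentiles of the 8 peaks ran from 4.54 to 95.3. Those at 62177124 to 62177467 and 62177323 to 62177666 overlapped each other. The latter and the peak at 62174102 to 62174445 missed a q-value of 0.05. The strongest of the window, at 62176552 to 62176895, was 8 kb before the 5′ end with a signal of 59.7 (percentile 95.3). Only 2 of the 14 lay within the span, with 7 before its 5′ end and 5 beyond its 3′ end. Inside the gene, the peak at 62165378 to 62165721 had a signal of 43.7 (percentile 85.8) and the peak at 62168616 to 62168959, at the 5′ end itself, a signal of 38.4 (percentile 77.7). Beyond the 3′ end, on the side where RefSeq places PPDPF and EEF1A2, 3 peaks stood within 1.21 kb. Among them were those at 62151363 to 62151706 (signal 42.9, percentile 84.8) and 62152009 to 62152352 (signal 32.7, percentile 61.8). Which of the neighbouring genes the peaks outside the span belong to was not determined. A peak at 62111127 to 62111470 (signal 41.0, percentile 82.0) lay farther out on that side.

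**Figure D3:**
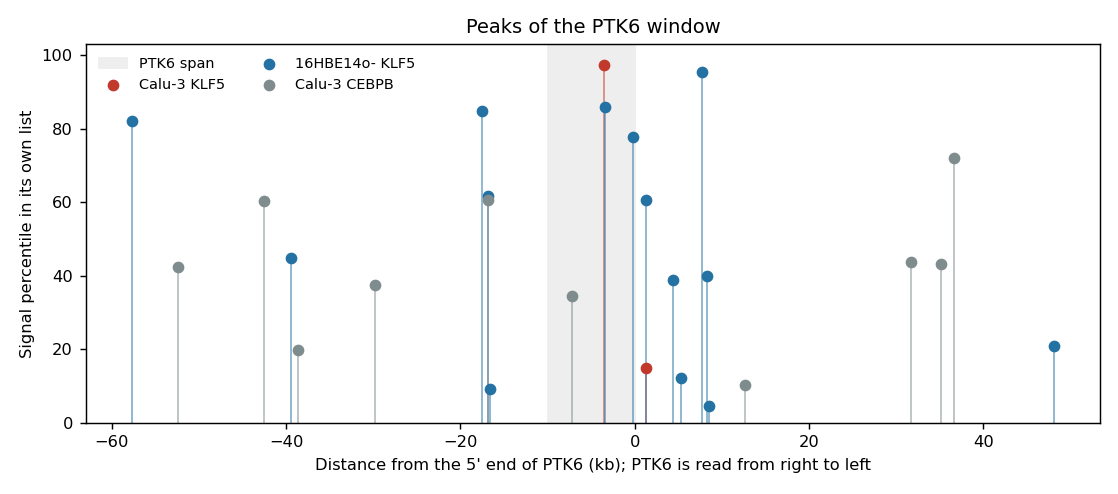
Signal percentile in its own list (y axis) of every peak in the PTK6 window by its distance in kb from the 5′ end of the gene (x axis); each stem is a peak, colours mark the 3 lists and grey shading marks the PTK6 span, which is read from right to left. The 2 Calu-3 KLF5 peaks coincide with 16HBE14o- KLF5 peaks of percentiles 85.8 and 60.6. Of the 14 16HBE14o- peaks, 8 lie in 12.3 kb, from 3 kb inside the gene to 8 kb before its 5′ end.

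Sites shared by both lines were found at PTK6 alone among these loci. The Calu-3 peak at 62165342 to 62165621, 4 kb into the gene, was the strongest Calu-3 KLF5 peak of the 8 windows, with a signal of 64.4 (percentile 97.3). It shared 244 bp with the 16HBE14o- peak at 62165378, and the summits were 68 bp apart. The other Calu-3 peak, at 62170106 to 62170385, lay 1 kb before the 5′ end and was weak, with a signal of 20.9 (percentile 15.0). The 16HBE14o- peak over it, at 62170133 to 62170476, was stronger within its own list, with a signal of 32.3 (percentile 60.6). Neither Calu-3 site had a CEBPB peak over it, and the nearest were 3.42 and 8.18 kb away.

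Over all windows, 2 of the 4 Calu-3 KLF5 peaks overlapped a 16HBE14o- KLF5 peak (50%, exact 95% interval 6.76 to 93.2), beside 23.6% of the whole list. In the other direction it was 2 of 21 (9.52%, 1.17 to 30.4), beside 11.3%. Outside PTK6 none of the 2 Calu-3 and 7 16HBE14o- peaks was shared. With so few peaks both intervals contain the share of the whole list.

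Within Calu-3, CEBPB and KLF5 peaks overlapped at 1 place in these windows, the MET start. This made 1 of 4 KLF5 peaks (25%, exact 95% interval 0.631 to 80.6), beside 43.7% of the whole list, and 1 of 65 CEBPB peaks (1.54%, 0.0389 to 8.28), beside 0.938%, and both intervals contain the share of the whole list. More CEBPB peaks coincided with KLF5 sites of the other line, 4 of 65 (6.15%, 1.70 to 15.0), beside 1.03%. Of these, 3 were at ERBB2 and 1 was the PTK6 peak at 62152057 to 62152245 (signal 3.47, percentile 60.5), which overlapped 2 neighbouring KLF5 peaks of 16HBE14o- that also overlapped each other. At ERBB2, 2 of the CEBPB peaks lay over the same KLF5 peak, so the 4 are not independent. The 3 at ERBB2 had signal percentiles of 1.60, 0.0404 and 0.331 and q-value percentiles of 94.0, 69.1 and 90.2. The peak at percentile 0.0404 shared only 6 bp with the KLF5 peak. Outside ERBB2, 1 of 55 CEBPB peaks overlapped a 16HBE14o- KLF5 peak. The 8 windows together also held 16HBE14o- KLF5 peaks at 1.49 per 100 kb, against 0.109 over their list. The part of that density in the share of 6.15% was not tested. Counting CEBPB peaks within 1000 bp, a distance chosen after the values had been seen, gave 6 of the 21 16HBE14o- peaks (28.6%, 11.3 to 52.2), beside 32.4% of the list. The other CEBPB peaks among the 3 strongest at PTK6, at 62205554 to 62205733 (signal 3.68, percentile 72.1) and 62126379 to 62126579 (signal 3.46, percentile 60.2), had no KLF5 peak over them.

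The density plot sets the windows side by side. CEBPB exceeded the chromosome's density in 7 windows and equalled it, to the digits given, at HBEGF, with the highest values at PTK6 (9.09 per 100 kb) and ERBB2 (7.09). Over all 1407 kb, the density was 4.62 for CEBPB against 2.32 over its list, 1.49 for 16HBE14o- KLF5 against 0.109 and 0.284 for Calu-3 KLF5 against 0.0504. PTK6 carried much of the KLF5 figures: without it they were 0.540 and 0.154. These windows were placed on genes, and no density was computed for other genes.

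**Figure D4:**
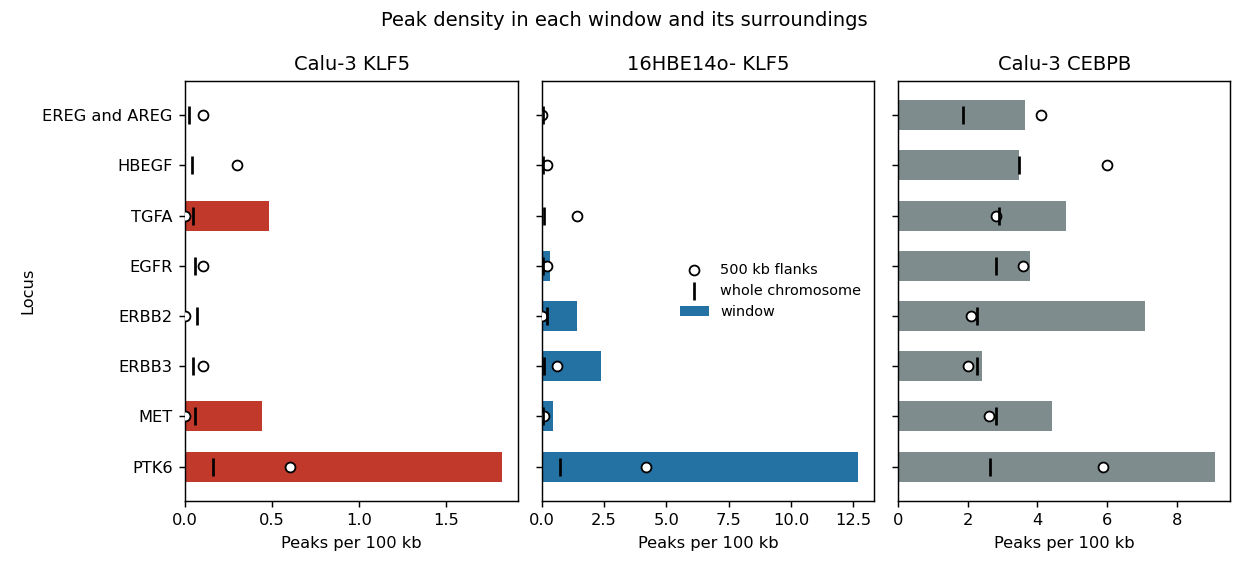
Peaks per 100 kb in each window (bars), in the 500 kb on either side of it (open circles) and over its whole chromosome (vertical ticks), with a panel and a scale of its own for each list. PTK6 has the longest bar in all 3 panels, and the bars of EREG and AREG and of HBEGF are at 0 in both KLF5 panels.

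In strength the KLF5 peaks of these loci were spread over the range of their lists. The median percentile was 54.2 for the 4 Calu-3 peaks and 49.0 for the 21 16HBE14o- peaks, of which 5 were in the top 25% and 7 in the bottom 25%. A q-value of 0.05 or less was reached by 4 of 4 Calu-3 peaks, beside 86.6% of the list, and by 14 of 21 16HBE14o- peaks (66.7%, exact 95% interval 43.0 to 85.4), beside 78.9%. The CEBPB peaks had a median signal percentile of 37.4, and 43.6 without ERBB2. Ranked by q-value instead, the medians were 73.6 and 63.4. Their q-values were 0.05 or less in 41 of 65 cases (63.1%, 50.2 to 74.7), beside 46.3% of the list. By gene, this was 10 of 10 at ERBB2, 7 of 10 at MET, 3 of 4 at HBEGF, 4 of 7 at EREG and AREG, 6 of 11 at EGFR, 6 of 10 at PTK6, 4 of 10 at TGFA and 1 of 3 at ERBB3. ERBB2 thus raised the share of 63.1%, and no interval was computed without it.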

How the data were processed

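ChIP-seq peak lists of 3 groups, 2 samples each, were analysed. Each list was made from both samples, per the series' design text, on hg19, per the file headers, which call the peaks IDR (irreproducible discovery rate) peaks. Aligner, peak caller and control: not given in the sources used here. The authors deposited for each peak a signal, a score and a −log10 q-value, and for CEBPB also a −log10 p-value. Their normalization was not stated, so signals were ranked within a list only.

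Spans were those of the selection rule, given to 1 kb. Strands came from RefSeq's promoter table, and from general knowledge for ERBB3 and PTK6, which were not matched there. RefSeq (GRCh38.p14) gave names and neighbours for all 9 genes and promoters for 7. Exons and introns were not assigned, the hg19 sequence was not used, and other pathway genes were not analysed here, as no hg19 annotation was used. Peaks overlapped when they shared at least 1 bp. Densities over chromosomes were taken between the outermost peaks of the 3 lists combined. Shares have exact (Clopper-Pearson) 95% intervals for counting error only. No significance test was run.

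Genes, loci and motifs were chosen with earlier results of these data known. Named were all KLF5 peaks or, above 6 per locus and list, the 6 of highest signal, with their overlap partners, and for CEBPB the 3 of highest signal per locus and those overlapping KLF5. The overlap functions were tested on simulated data. Python 3.11.15, numpy 2.4.6, pandas 2.3.3, scipy 1.17.1 and matplotlib 3.10.9 were used.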

Additional observations from a re-analysis of the deposited data

How the results depend on the processing

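Of 65 recomputed values, 55 stayed within the limits set for them, a factor of at most 1.5 for counts and the 95% interval for shares and medians. The rest came mostly from filters that shortened the lists. With each list limited to the 1510 peaks of highest signal, the windows held 10 16HBE14o- KLF5 peaks, 7 of them at PTK6, and 0 CEBPB peaks, so that the overlap with CEBPB was 0% for both KLF5 lists. With a q-value of 0.05 or less in every list, 14 16HBE14o- KLF5 peaks (21 in the full list, at the limit) and 41 CEBPB peaks were left and the MET overlap was lost, which gave 0% of Calu-3 KLF5 and 0% of CEBPB peaks. A margin of 100 kb gave 107 CEBPB peaks. Ranked by q-value, the CEBPB peaks had a median percentile of 73.6 (37.4 by signal), and 63.4 without ERBB2. No paired analysis was possible because the samples of a group had been combined into 1 list, and for the same reason no sample could be left out. Depth is unknown, so a missing peak is no measure of absent binding.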

Other observations

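In the 50 kb just beyond the margin, few KLF5 peaks were listed at any locus. Between 50 and 100 kb from the spans, Calu-3 KLF5 had 1 peak, the site before EGFR, and 16HBE14o- KLF5 had 2, both beyond the 3′ end of PTK6, at 62084892 to 62085235 (percentile 6.90) and 62089196 to 62089539 (percentile 73.2). Neither of the PTK6 sites was overlapped by a CEBPB or a Calu-3 KLF5 peak. CEBPB had between 2 peaks, at MET, and 7, at HBEGF and PTK6, in the same belt. At the margin itself, the outermost 16HBE14o- peaks counted were both at PTK6, 48.1 and 47.7 kb from the span, with signals of 24.5 and 41.0.

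The promoters of AREG and ERBB2, which are not among those shown, also held GGGNGNGG, with 1 match at AREG and 2 at ERBB2. TGANTCA occurred 1 time, at ERBB2.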
